A study of Caenorhabditis elegans with 12 samples.

Results

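The nuclear hormone receptor family of Caenorhabditis elegans was followed through exposure to cadmium (Cd) in animals with and without metallothioneins. A gene was taken as a member when its probe set carried a single platform symbol made of nhr and a number, and where a gene had several, the one brightest on average across all 12 arrays was used. This gave 254 genes of the 17118 with such a probe set. They were read by 293 of the 22548 probe sets tested, and 33 of the genes had more than 1 probe set, up to 4. The zinc and cadmium sensor hizr-1, which also belongs to the family, carries its own name and is not among them.

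Nuclear hormone receptors are transcription factors with a zinc-finger DNA-binding domain and a domain that in many members binds a small lipophilic ligand such as a steroid, a fatty acid or a xenobiotic. The family is greatly expanded in nematodes, mostly with relatives of the vertebrate receptor HNF4, and the ligands of most members are not known. Members with known roles in C. elegans control fat metabolism and fasting, breakdown of propionate, detoxification and immunity, moulting, and organ development.

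Whole L4 larvae had been profiled on 12 one-colour arrays, with 3 arrays in each of 4 groups. The strain label of all groups was N2 (Bristol), a laboratory wild type, and the genotype was either wild type or mtl-1,mtl-2(zs1), called MT KO below, a double knockout of the genes for both metallothioneins, small cysteine-rich proteins that bind Cd. Each genotype was raised without Cd or in 30 µM Cd. Animals of all groups were fed Escherichia coli OP50 at 20 °C, grown from synchronised L1 larvae to L4, and 200 ng of their total RNA was amplified. The labels number the arrays within a group without saying that they are separate cultures, and p-values therefore measure only how far these arrays scatter, which could be technical scatter. Because whole animals were used, fewer cells of a type and less RNA per cell cannot be told apart.

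The genes deleted in MT KO separated the strains. The mtl-1 probe set read 4.47 to 5.10 in wild type without Cd and 9.58 to 10.28 with Cd, against 3.43 to 4.26 in all 6 MT KO arrays. The 3 probe sets of mtl-2 read 8.93 to 11.81 in wild type and 3.56 to 5.78 in MT KO. Whether these probes lie within the deleted part was not examined. Arrays of a group correlated at r of 0.991 or more. All values were taken as log2 GCRMA values, and their median over all probe sets and arrays was 4.03. A mean below that was treated as possibly background, since no detection call was used. The 3′ minus 5′ signal of control transcripts, a sign of RNA degradation, averaged 1.98 ± 0.78 on the log2 scale for untreated wild type (SD, n = 3), 1.13 ± 0.10 for treated wild type, 1.38 ± 0.10 for untreated MT KO and 0.92 ± 0.17 for treated MT KO. The untreated wild-type arrays were uneven, with 2.81 for replicate 1, 1.84 for replicate 2 and 1.28 for replicate 3.

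Most of the family read low on these arrays. Of the 254 members, 96 (37.8%) had a mean above the median of all values, compared with 50.1% of all probe sets, and 1 had a mean above 8, compared with 11.2%. That member was nhr-49, an HNF4-like receptor that controls fatty acid metabolism, with 8.72. Probe sets also differ in affinity, so these shares describe brightness on the array and not amounts of RNA. By RefSeq, 243 members were protein coding and 11 were pseudogenes. Chromosome V held 164 members (64.6%), and 52 of these (31.7%) read above the median of all values, compared with 44 of the 90 on other chromosomes (48.9%).

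Exposure to Cd changed some family members in wild type, and the largest change was a fall of nhr-114. At an adjusted p under 0.05 (limma, Benjamini-Hochberg over all probe sets), 14 members rose (5.51%, beside 6.44% of all probe sets) and 13 fell (5.12%, beside 5.5%). These 27 were 10.6% of the family, and 11.9% of all probe sets were called. Among members above the median of all values, 23 of 96 were called (24.0%), against 21.5% of probe sets as bright. The 3 arrays with Cd lay all above or all below those without Cd for 60 members (23.6%), against 25% of all probe sets. The members' median log2 difference was 0.01, and that of all probe sets was 0.00. These shares were near the background of the arrays. After quantile normalization 9 members rose and 14 fell. With the 3′ minus 5′ signal in the fit 16 were called, 12 of them among the 27, and a fit of the 6 wild-type arrays alone called 17.

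In MT KO, Cd changed 48 members, of which 35 rose and 13 fell. This was 18.9% of the family, against 22.5% of all probe sets. Members that rose made up 13.8% of the family, beside 11.5% of all probe sets, and members that fell made up 5.12%, beside 11% of all probe sets. No test of that difference in direction was made. Of the members above the median of all values 37 of 96 were called (38.5%), against 35.4% of probe sets as bright. The groups did not overlap for 108 members (42.5%), against 43.2% of all probe sets. The members' median difference was 0.05, beside 0.02 for all probe sets. Changes of 2-fold or more that passed the test numbered 4 in wild type (1.57% of the family, beside 2.77% of all probe sets) and 9 in MT KO (3.54%, beside 7.34%).

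The 2 strains had 19 called members in common, which is 70.4% of the calls in wild type and 39.6% of those in MT KO. Of these, 11 rose in both strains (nhr-7, nhr-14, nhr-21, nhr-35, nhr-40, nhr-100, nhr-123, nhr-133, nhr-142, nhr-184 and nhr-212) and 8 fell in both (nhr-3, nhr-12, nhr-43, nhr-68, nhr-91, nhr-106, nhr-114 and nhr-234). No member was called in opposite directions. In wild type alone, 3 rose and 5 fell past the threshold, and in MT KO alone 24 rose and 5 fell. A call in a single strain does not show a difference between strains, and the interaction that tests it was called for 5 members. Over the 96 brighter members the differences of the strains, which share no array, had Pearson's r of 0.837 and Spearman's rho of 0.774. The sign was the same in 80 of them. Genes are not independent replicates, so these are descriptions. The overlap of calls, the correlations and the shared signs were not computed over all probe sets. They therefore do not set the family apart.

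**Figure D1:**
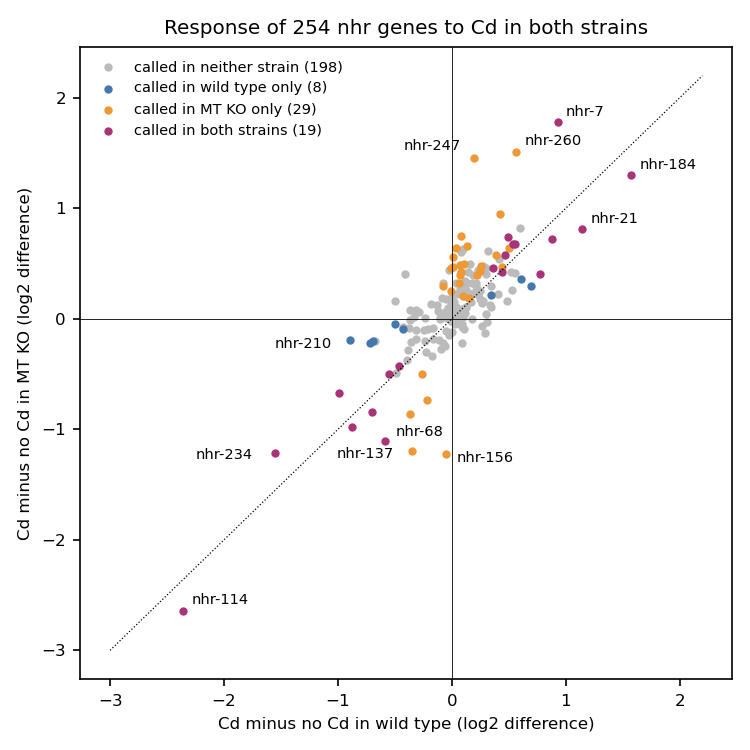
Log2 difference with Cd in wild type (x axis) against that in MT KO (y axis) for the 254 nhr genes, 1 point per gene, coloured by the strains in which the gene was called; the dotted line marks equal differences. The 19 genes called in both strains lie in the lower left and upper right, and nhr-156 lies near 0 in wild type and at −1.22 in MT KO.

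Receptors of the propionate and methionine pathways gave the largest falls among the role lists. Of the 3 on this list, nhr-114 and nhr-68 fell in both strains and nhr-10 was not called in either. The list's median was −0.58 in wild type and −1.10 in MT KO, beside 0.00 and 0.02 for all probe sets, of which 5.5% and 11% fell. The lists were chosen with earlier results of these data known, so these figures do not set this list of 3 apart. The gene nhr-114, which in C. elegans protects the germ line on some bacterial diets and acts on the methionine cycle, read 5.92, 6.56 and 7.15 in wild type without Cd and 4.32, 3.68 and 4.55 with Cd. The MT KO values were 7.33, 7.04 and 7.18 without Cd and 4.23, 4.29 and 5.10 with Cd. All 6 arrays with Cd lay below all 6 without Cd. It fell by 2.36 on the log2 scale in wild type (SE 0.35, 5.13-fold lower, adjusted p = 0.00194) and by 2.64 in MT KO (SE 0.35, 6.24-fold lower, adjusted p = 0.000443). The strains were not shown to differ in this response, with an interaction of −0.28 (95% interval −1.38 to 0.82, adjusted p = 0.854).

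Of the partners nhr-10 and nhr-68, only nhr-68 was called. In the propionate shunt both activate genes for the breakdown of propionate when vitamin B12 is short. The nhr-68 probe set read 7.68, 7.87 and 7.62 in wild type without Cd and 7.26, 7.08 and 7.08 with Cd. Arrays of MT KO gave 8.27, 8.08 and 7.94 without Cd and 6.87, 7.03 and 7.08 with Cd. In both strains the groups were apart, and the MT KO arrays without Cd were the highest of the 12. The fall was 0.58 in wild type (log2 difference −0.58, SE 0.10, adjusted p = 0.00476) and 1.10 in MT KO (log2 difference −1.10, SE 0.10, adjusted p = 5.32e-05), with an interaction of −0.52 that did not pass (adjusted p = 0.0712). In wild type the adjusted p of nhr-68 was 0.0504 once RNA quality (3′ minus 5′) entered the fit. The nhr-10 differences were −0.03 in wild type (adjusted p = 1) and 0.06 in MT KO (adjusted p = 0.86).

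Most of the listed targets of nhr-10 and nhr-68 read lower with Cd, and a link to the receptors was not tested. Of 4 genes activated through nhr-10 and nhr-68, 3 fell in each strain and none rose. Of all probe sets, 5.5% fell in wild type and 11% in MT KO. The list's median difference was −1.08 in wild type and −1.78 in MT KO, beside 0.00 and 0.02 for all probe sets. This list of 4 was also chosen with earlier results known, so these figures do not set it apart. The acyl-CoA dehydrogenase acdh-1 of the shunt read 12.90, 12.94 and 12.78 in wild type without Cd and 11.29, 10.85 and 10.96 with Cd, a fall with no overlap (log2 difference −1.84, adjusted p = 2.26e-05). Its difference in MT KO was −1.71 (adjusted p = 1.96e-05). The hydrolase hach-1 and the dehydrogenase hphd-1, later steps of the shunt, fell more in MT KO than in wild type. For hach-1 the differences were −1.05 and −2.13 (interaction −1.08, adjusted p = 0.0341), and for hphd-1 they were −1.10 and −1.85 (interaction −0.75, adjusted p = 0.032). The fourth, alh-8, had −0.03 and −0.43, and neither passed. Of the 5 intestine markers given below, pept-1 and act-5 also fell in each strain, while ges-1 rose.

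Other receptors that fell in both strains have no role named here. For nhr-234 the arrays without Cd read 5.74, 5.89 and 5.91 in wild type and 5.19, 5.95 and 5.98 in MT KO. The arrays with Cd read 4.34, 4.19 and 4.35 in wild type and 4.33, 4.37 and 4.78 in MT KO. All arrays with Cd lay below all without, and the log2 differences were −1.55 (SE 0.20, adjusted p = 0.000966) and −1.22 (SE 0.20, adjusted p = 0.00177). The nhr-106 probe set read 5.47, 5.55 and 5.55 in wild type without Cd, and 4.61, 4.57 and 4.43 with Cd. In MT KO it read 5.56, 5.49 and 5.69 without Cd, and 4.98, 4.70 and 5.06 with Cd. Groups did not overlap in either strain, and the differences were −0.99 (SE 0.09, adjusted p = 0.000151) and −0.67 (SE 0.09, adjusted p = 0.000599).

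Among the developmental receptors, nhr-91, a relative of the vertebrate germ cell nuclear factor, also fell in both strains. It read 4.92, 5.24 and 5.59 in wild type without Cd and 4.26, 4.23 and 4.63 with Cd. For MT KO the values were 5.02, 5.10 and 5.12 without Cd and 3.97, 4.17 and 4.16 with Cd. The arrays with Cd were the lower in each strain, with differences of −0.88 in wild type (SE 0.16, adjusted p = 0.00665) and −0.98 in MT KO (SE 0.16, adjusted p = 0.0017). With only the 6 wild-type arrays in the fit, its wild-type adjusted p was 0.063. Smaller falls passed in both strains for nhr-43 (−0.70 and −0.84), nhr-12 (−0.56 and −0.50) and nhr-3 (−0.46 and −0.43). In wild type the call of nhr-43 was lost on dropping the untreated replicate 3 (adjusted p = 0.0529) or the treated replicate 2 (0.0608), and that of nhr-12 on dropping the untreated replicate 1 (0.08) or 2 (0.0965) or the treated replicate 1 (0.0724). With the 3′ minus 5′ covariate both wild-type calls were lost (adjusted p = 0.0988 for nhr-43 and 0.184 for nhr-12), and in a fit of the 6 wild-type arrays that of nhr-12 was (0.148).

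Of the members that rose, nhr-184 had the largest rise in wild type, from means near the median of all values. It read 4.28, 3.84 and 3.86 in wild type without Cd and 5.76, 5.60 and 5.36 with Cd. Its MT KO arrays read 4.22, 3.94 and 3.54 without Cd and 5.01, 5.74 and 4.87 with Cd. The groups were apart in each strain, and the rises were 1.58 (SE 0.25, 2.98-fold, adjusted p = 0.00305) and 1.30 (SE 0.25, 2.47-fold, adjusted p = 0.00422). Its neighbour on chromosome V, nhr-133, rose by 0.47 in wild type (adjusted p = 0.021) and 0.58 in MT KO (adjusted p = 0.0035).

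The rise of nhr-21 was measured on tight wild-type arrays, which read 6.50, 6.52 and 6.54 without Cd and 7.65, 7.62 and 7.73 with Cd. The MT KO arrays read 6.14, 7.06 and 6.70 without Cd and 7.44, 7.35 and 7.53 with Cd. No arrays overlapped, with rises of 1.14 (SE 0.18, adjusted p = 0.00307) and 0.81 (SE 0.18, adjusted p = 0.01). In a fit of the 6 MT KO arrays alone the adjusted p was 0.0807. For nhr-7 the wild-type arrays read 3.45, 3.46 and 3.71 without Cd and 4.35, 4.47 and 4.59 with Cd. The MT KO arrays read 4.09, 3.70 and 3.09 without Cd and 5.53, 5.55 and 5.13 with Cd, the highest of all groups. Here the differences were 0.93 in wild type (SE 0.22, adjusted p = 0.0252) and 1.78 in MT KO (SE 0.22, 3.43-fold, adjusted p = 0.000345).

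The wild-type call of nhr-7 was lost on dropping the untreated wild-type replicate 1 (adjusted p = 0.075) or 2 (0.0801), or the treated wild-type replicate 1 (0.0505), 2 (0.071) or 3 (0.0849). Once RNA quality (3′ minus 5′) entered the fit, its adjusted p was 0.171. The rise of nhr-7 is measured against group means of 3.54 and 3.63, below the median of all values.

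A bright member, nhr-100, read 7.47, 7.50 and 7.17 in wild type without Cd and 8.14, 8.33 and 7.99 with Cd, a rise without overlap of 0.78 (SE 0.10, adjusted p = 0.0012). Its MT KO arrays read 7.71, 7.79 and 7.62 without Cd and 8.14, 8.06 and 8.14 with Cd, also apart, with a rise of 0.41 (adjusted p = 0.019). The MT KO call was lost on dropping the untreated MT KO replicate 3 (adjusted p = 0.0692) or the treated MT KO replicate 1 (0.0589) or 3 (0.055). In wild type, smaller rises passed for nhr-161 (0.70, adjusted p = 0.0469), nhr-206 (0.61, adjusted p = 0.0402), nhr-142 (0.54, adjusted p = 0.0447) and nhr-212 (0.50, adjusted p = 0.0156). Of these, nhr-142 and nhr-212 also rose in MT KO, by 0.68 and 0.74. Their wild-type calls were lost without 9, 8, 11 and 3 of the 12 arrays in the order given, with adjusted p up to 0.149. With the 3′ minus 5′ covariate the difference of nhr-142 was 0.28 (adjusted p = 0.449) and nhr-206 had an adjusted p of 0.17. A fit of the 6 wild-type arrays gave adjusted p of 0.116 for nhr-161, 0.0733 for nhr-206 and 0.101 for nhr-142.

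In wild type alone, nhr-121 fell by 0.72 on the log2 scale (SE 0.13, adjusted p = 0.00566), reading 5.06, 5.36 and 4.94 without Cd and 4.42, 4.30 and 4.48 with Cd, with an adjusted p of 0.0515 once the 3′ minus 5′ signal was in the fit. In MT KO alone, nhr-172 had a difference of −0.86 (SE 0.14, adjusted p = 0.0016) at levels below the median of all values. Neither gene was called in the interaction, so these calls do not show a difference between the strains.

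**Figure D2:**
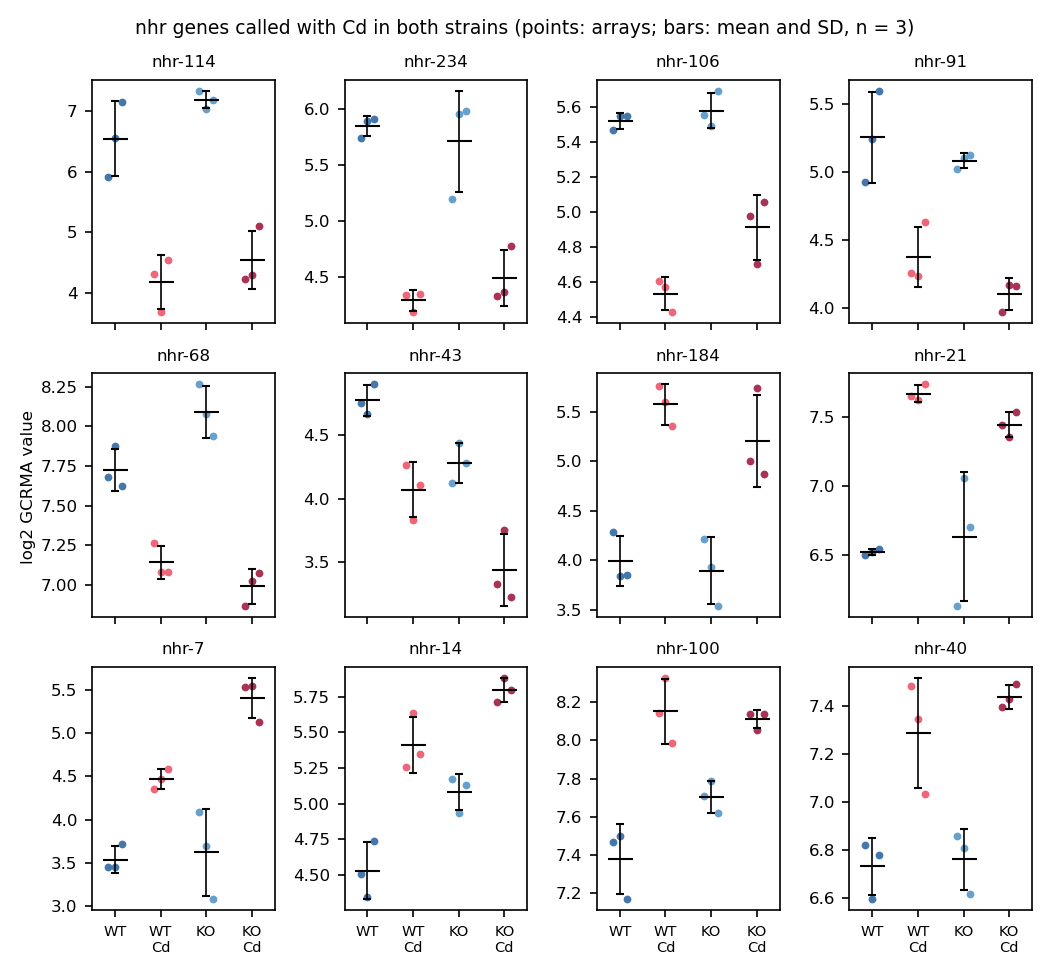
Log2 GCRMA values of 12 nhr genes called with Cd in both strains, with 1 point per array and the mean and SD (n = 3) of each group as bars; WT is wild type and KO is MT KO. The genes nhr-114, nhr-234, nhr-106, nhr-91, nhr-68 and nhr-43 read lower with Cd and the other 6 read higher, in each strain; the y axes differ between panels and do not start at 0.

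Of the 6 measured receptors for xenobiotics, pathogens, metals and hypoxia, 1 rose in wild type and 2 in MT KO, and none fell. Of all probe sets 6.44% and 11.5% rose, and counts this small do not set the list apart. Its median difference was 0.04 in wild type and −0.10 in MT KO, beside 0.00 and 0.02. The receptor that rose in both strains was nhr-14, a regulator of intestinal iron uptake and innate immunity. It read 4.51, 4.35 and 4.74 in wild type without Cd and 5.26, 5.63 and 5.35 with Cd, then 5.17, 4.94 and 5.13 in MT KO without Cd and 5.71, 5.88 and 5.80 with Cd. The 4 groups did not overlap within a strain, and the rises were 0.88 (SE 0.12, adjusted p = 0.00145) and 0.72 (SE 0.12, adjusted p = 0.00212). Without Cd the MT KO arrays were above the wild-type arrays, by 0.55 (adjusted p = 0.0642), which did not pass the test.

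The second to rise in MT KO was nhr-45, by 0.66, whose arrays are given below with the strain differences. The remaining 4 members did not pass the threshold in either strain. For nhr-8, which acts in xenobiotic resistance and cholesterol balance, the differences were 0.10 in wild type and −0.09 in MT KO (adjusted p = 0.94 and 0.82). For nhr-86, an intestinal receptor of the immune response, they were −0.02 and −0.14 (adjusted p = 1 and 0.69). The gene nhr-57, known as a target of the hypoxia factor HIF-1, had −0.06 and −0.25, and nhr-176, which controls a cytochrome P450 that breaks down thiabendazole, had −0.32 and −0.10 at a mean of 3.29. Of all probe sets, 5.5% fell in wild type and 11.5% rose in MT KO. Of the 4 targets of nhr-86, nhr-176 and nhr-14 measured, 2 fell in wild type and 1 rose in MT KO, with medians of −0.62 and −0.29. These were irg-5, an infection response gene, at −1.34 in wild type (adjusted p = 0.00653), the metal transporter smf-3 at −0.65 in wild type (adjusted p = 0.0485), with all its means below the median of all values, and irg-4 at 1.20 in MT KO (adjusted p = 0.00426).

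Of the 7 measured lipid metabolism receptors, none was called in wild type and 1 rose in MT KO. Beside the 11.9% and 22.5% of all probe sets that were called, so short a list is not set apart. Its median was 0.07 in wild type and −0.20 in MT KO. The receptor called was nhr-49, which read 8.23, 8.62 and 8.65 in MT KO without Cd and 8.84, 8.91 and 8.93 with Cd, a rise without overlap of 0.39 (SE 0.10, adjusted p = 0.0194). In wild type it read 8.68, 8.77 and 8.68 without Cd and 8.74, 8.89 and 8.72 with Cd, with overlap (difference 0.07, adjusted p = 0.851). The second probe set of nhr-49 gave other calls, with 0.60 in wild type (adjusted p = 0.00737) and 0.34 in MT KO (adjusted p = 0.0547), and without Cd it was higher in MT KO than in wild type by 0.60 (adjusted p = 0.0341). The MT KO call of the first was lost on dropping the treated MT KO replicate 2 (adjusted p = 0.0565) or 3 (0.0589), with the 3′ minus 5′ covariate (0.0555), and with only the 6 MT KO arrays (0.0944).

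Partners of nhr-49 in the control of fatty acid desaturation, nhr-80 and nhr-13, were at −0.23 and −0.49 in wild type and at −0.20 and −0.49 in MT KO, and none of these passed (adjusted p of nhr-13 0.122 and 0.0837). The wild-type difference of nhr-64 was 0.48 (adjusted p = 0.0513). Of 8 target genes of nhr-49 and nhr-80, 2 rose and 2 fell in wild type, and 3 rose and 2 fell in MT KO. Of all probe sets, 6.44% rose and 5.5% fell in wild type, and 11.5% rose and 11% fell in MT KO. The stearoyl-CoA desaturase fat-7 read 6.65, 6.32 and 6.51 in wild type without Cd and 4.02, 3.70 and 4.08 with Cd. In MT KO it read 8.18, 8.52 and 8.89 without Cd and 5.65, 5.68 and 5.63 with Cd. It was lower with Cd in both strains (−2.56, adjusted p = 1.46e-05, and −2.88, adjusted p = 5.06e-06) and higher in MT KO than in wild type both without Cd (2.04, adjusted p = 0.000863) and with Cd (1.72, adjusted p = 0.000583). The flavin monooxygenase fmo-2, in contrast, was higher with Cd, by 2.09 in wild type (adjusted p = 2.72e-05) and 2.70 in MT KO (adjusted p = 4.01e-06), measured against untreated means below the median of all values. The brighter desaturase fat-6 (mean 10.81) rose in MT KO by 0.37 (adjusted p = 0.0201), and its wild-type difference of 0.15 did not pass (adjusted p = 0.444). The target acs-2 (mean 8.51) rose in wild type by 1.30 (adjusted p = 0.0103), and its MT KO difference was 0.39. The list's median differences were −0.18 and 0.21, beside 0.00 and 0.02 for all probe sets.

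**Figure D3:**
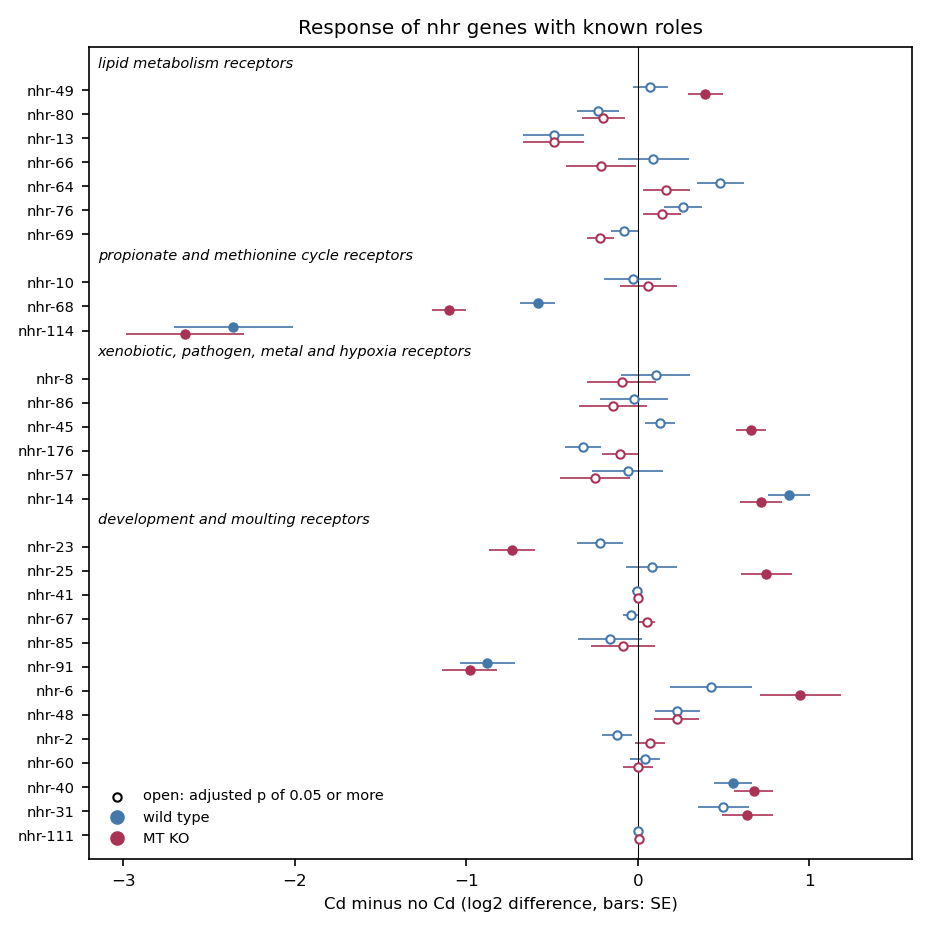
Log2 difference with Cd, in either strain, for each measured nhr gene of 4 role lists, with the SE of the limma fit as bars; filled points passed an adjusted p of 0.05. The falls of nhr-114 and nhr-68 stand in both strains, while among the lipid receptors only nhr-49 is filled, in MT KO, and the list spans −0.49 to 0.48 in wild type.

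Of 13 measured developmental and moulting receptors, 1 rose and 1 fell in wild type, while 4 rose and 2 fell in MT KO. The shares of all probe sets were 6.44% and 5.5% in wild type and 11.5% and 11% in MT KO, and the wild-type count is near these. The list's median was 0.00 in wild type and 0.05 in MT KO. The receptor nhr-23, a relative of vertebrate ROR needed for moulting, read 8.45, 8.28 and 7.89 in wild type without Cd and 8.03, 7.95 and 7.98 with Cd. Arrays of MT KO gave 8.18, 8.14 and 8.07 without Cd and 7.23, 7.37 and 7.60 with Cd. The 3 MT KO arrays with Cd were the lowest of the 12. The fall was −0.73 in MT KO (SE 0.13, adjusted p = 0.00322) and the wild-type difference −0.22 (adjusted p = 0.409). Its second probe set, at a lower level, gave 0.00 in wild type and −1.32 in MT KO (adjusted p = 2.6e-05), and its interaction of −1.32 passed (adjusted p = 0.0017), whereas that of the first did not (−0.51, adjusted p = 0.19).

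A second moulting receptor moved the other way. The gene nhr-25, the worm relative of the fly factor Ftz-F1, read 4.69, 4.36 and 4.22 in MT KO without Cd and 5.46, 5.15 and 4.90 with Cd, a rise of 0.75 without overlap (SE 0.15, adjusted p = 0.00521). In wild type its difference was 0.08. Its second probe set, at 2.03, was not called. In a fit of the 6 MT KO arrays alone its adjusted p was 0.0516. Of 8 genes for cuticle and moulting placed downstream of nhr-23 and nhr-25, none was called in wild type and 6 fell in MT KO, where 11% of all probe sets fell. The median was −1.03 there and −0.15 in wild type, beside 0.02 and 0.00 for all probe sets. This list too was chosen with earlier results known. A link of these genes to the receptors was not tested, and all 6 sperm markers given below also fell with Cd in MT KO. The protease inhibitor mlt-11 read 10.80, 10.88 and 10.80 in MT KO without Cd and 9.48, 9.64 and 9.34 with Cd, a fall of 1.34 on the log2 scale (adjusted p = 2.61e-05, interaction −0.96, adjusted p = 0.00604). The collagen dpy-7 fell by 1.09 there (adjusted p = 0.000102, interaction −1.05, adjusted p = 0.00533).

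Other developmental members rose in MT KO. The muscle and embryo receptor nhr-40 rose in both strains, by 0.56 in wild type (adjusted p = 0.0112) and 0.68 in MT KO (adjusted p = 0.00191), and its wild-type adjusted p was 0.0688 with only the 6 wild-type arrays and 0.0505 with the 3′ minus 5′ covariate. A second probe set of nhr-40 gave 0.88 in wild type (adjusted p = 0.0361) and 0.52 in MT KO (adjusted p = 0.153). The spermatheca receptor nhr-6, of the NR4A group, rose in MT KO by 0.95 (SE 0.24, adjusted p = 0.0169) and read 5.76, 5.89 and 5.21 without Cd and 6.46, 6.99 and 6.26 with Cd. This call was lost on dropping the untreated MT KO replicate 3 (adjusted p = 0.0571) or the treated MT KO replicate 2 (0.0561), and with only the 6 MT KO arrays (0.0693). The excretory cell receptor nhr-31 rose by 0.64 in MT KO (adjusted p = 0.0126), and its wild-type difference of 0.50 did not pass (adjusted p = 0.0629). The members nhr-41, nhr-67, nhr-85, nhr-48, nhr-2, nhr-60 and nhr-111 had means of 1.99 to 3.56, below the median of all values, and none was called.

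Markers of several tissues also differed between the groups. The mean of 6 sperm markers was 8.15 in untreated and 7.90 in treated wild type, then 8.87 in untreated and 6.10 in treated MT KO, where all 6 fell. The mean of 4 pharynx markers was 7.60, 8.14, 7.51 and 8.77 in the same order, and that of 5 hypodermis markers, 3 of which are also among the moulting genes above, was 8.56, 8.68, 8.35 and 7.96. In MT KO only bli-1 (−1.73) and dpy-7 (−1.09) of the hypodermis markers fell with Cd, elt-3, rol-6 and col-19 had differences of 0.51, 0.22 and 0.12 that did not pass, and the list's median was 0.12. The mean of 5 intestine markers was 8.99, 8.53, 9.06 and 8.65, and its members went both ways. The peptide transporter pept-1 fell by 2.34 in wild type and 2.35 in MT KO and act-5 fell by 0.61 and 0.84, whereas ges-1 rose by 0.83 and 0.71. The other two, elt-2 and ifb-2, were not called, and the list's median was −0.55 in wild type and 0.13 in MT KO. The means of 5 neuron markers were 7.26, 7.43, 7.14 and 7.74, those of 5 oocyte markers 5.09, 5.85, 5.12 and 5.21, those of 4 germline markers 8.86, 8.86, 8.83 and 8.54, and those of 4 body wall muscle markers 10.15, 10.13, 10.05 and 10.22. The ranges over arrays did not overlap between MT KO without and with Cd for sperm, pharynx, hypodermis, intestine, neuron and germline markers. In wild type they did not overlap for intestine, pharynx and oocyte markers. Of all single probe sets, 43.2% were apart in MT KO and 25% in wild type. Among those above the median of all values the shares were 51.8% and 41.1%. A mean over several markers can scatter less than a single probe set, so these shares are not a like comparison. All markers but 1 of hypodermis had means above the median of all values. Their part in the changes of the receptors was not tested.

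Without Cd the strains differed in 1 member at the threshold, nhr-156, which was higher in MT KO. This was 0.394% of the family, against 1.65% of all probe sets. The strains' arrays were apart for 26 members (10.2%), against 15.9% of all probe sets. An unadjusted p under 0.05 was found for 20 members (7.87%), against 14.9% of all probe sets. The nhr-156 probe set read 3.37, 3.32 and 3.32 in untreated wild type and 3.25, 3.30 and 3.32 after Cd. The MT KO arrays read 4.57, 4.62 and 4.40 untreated and 3.36, 3.35 and 3.23 after Cd. Only MT KO without Cd stood apart, above the median of all values, while the other 3 groups read below it. The strain difference without Cd was 1.19 (SE 0.06, 2.29-fold, adjusted p = 2.49e-05) and that with Cd 0.02 (adjusted p = 0.873). With Cd in MT KO the level fell by 1.22 on the log2 scale (SE 0.06, adjusted p = 2.03e-06), and the interaction was −1.17 (SE 0.08, adjusted p = 0.00021). No role of nhr-156 is stated here.

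With Cd, 16 members differed between the strains, 13 of them higher in MT KO and 3 lower. This was 6.30% of the family, against 8.56% of all probe sets, with 5.12% of the family higher beside 3.62% of all probe sets, and 1.18% lower beside 4.94%. The groups were apart for 57 members (22.4%), against 25.9% of all probe sets. This comparison shares its MT KO arrays with the Cd comparison in MT KO, and its wild-type arrays with that in wild type. The members that were lower in MT KO were nhr-43 (−0.63), nhr-137 (−0.61) and nhr-23 (−0.59).

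The largest rise over wild type with Cd was that of nhr-247, which read 2.81, 3.24 and 3.02 in wild type and 3.41, 4.63 and 4.70 in MT KO. The arrays were apart, with 1 MT KO array near wild type, and the difference was 1.22 (SE 0.29, adjusted p = 0.032). Without Cd all 6 arrays of nhr-247 read 2.70 to 2.99, so its fold is against a level that may be background. For nhr-55 the arrays with Cd read 5.20, 5.22 and 5.12 in wild type and 5.81, 6.15 and 6.28 in MT KO, a difference without overlap of 0.90 (SE 0.14, adjusted p = 0.00425). The gene nhr-55 fell with Cd in wild type (−0.69, adjusted p = 0.0111) but had an adjusted p of 0.148 there with the 3′ minus 5′ covariate. For nhr-180 and nhr-154 the MT KO arrays with Cd were higher by 0.48 (adjusted p = 0.0062) and 0.62 (adjusted p = 0.0107), and the other 3 groups of nhr-180 read 4.28 to 4.49.

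Leaving out a single array gave between 5 and 19 strain calls with Cd, and 4 of the 13 named calls remained whichever array was dropped, those of nhr-55, nhr-260, nhr-154 and nhr-180. With only the 6 arrays with Cd in the fit, the adjusted p was 0.0615 for nhr-260, 0.0723 for nhr-154, 0.154 for nhr-247, 0.121 for nhr-43 and 0.058 for nhr-137. The count was 9 without wild type without Cd replicate 2, 10 without MT KO without Cd replicate 2, 5, 7 and 7 on dropping the treated wild-type replicates 1, 2 and 3 in turn, and 9 each on dropping the treated MT KO replicates 1 and 2.

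The response to Cd differed between the strains in 5 members, 1.97% of the family against 5.45% of all probe sets. These were nhr-156, nhr-260, nhr-210 and nhr-45, with nhr-137 as the fifth. The count depends on the choice of 1 probe set per gene. Probe sets not chosen passed for a few other members, among them nhr-23 (given above) and nhr-71 (0.51, adjusted p = 0.0492). At an unadjusted p under 0.05 there were 31 members (12.2%), against 16.9% of all probe sets. The probe set of nhr-260 read 4.05, 4.11 and 4.0 in untreated wild type and 4.55, 4.94 and 4.36 after Cd. The MT KO arrays read 4.09, 4.09 and 3.98 untreated and 5.28, 5.58 and 5.85 after Cd. The arrays without Cd overlapped between the strains, and those of MT KO with Cd were above all others. Its rise was 1.51 in MT KO (SE 0.16, 2.85-fold, adjusted p = 0.000131) and its wild-type difference 0.57 (adjusted p = 0.0513), with an interaction of 0.95 (SE 0.23, adjusted p = 0.045).

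The fall of nhr-137 was the reverse case. It read 7.78, 7.54 and 7.24 in wild type without Cd and 7.36, 7.14 and 7.01 with Cd, with overlap. MT KO arrays read 7.85, 7.73 and 7.70 without Cd and 6.46, 6.78 and 6.45 with Cd, and the latter were below all others. Its differences were −0.35 in wild type (adjusted p = 0.177) and −1.20 in MT KO (SE 0.15, adjusted p = 0.000279), with an interaction of −0.85 (SE 0.21, adjusted p = 0.0457). For nhr-210 the fall passed in wild type and not in MT KO. It fell by 0.90 in wild type (log2 difference −0.90, SE 0.12, adjusted p = 0.0011), where it read 5.32, 4.99 and 5.32 without Cd and 4.19, 4.37 and 4.38 with Cd. In MT KO it read 4.70, 4.80 and 5.11 without Cd and 4.67, 4.67 and 4.70 with Cd, a difference of −0.19 (adjusted p = 0.314), and the interaction was 0.71 (SE 0.17, adjusted p = 0.0421).

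The receptor nhr-45, which takes part in responses to mitochondrial stress and toxins, rose in MT KO by 0.66 (SE 0.09, adjusted p = 0.000466). It read 5.90, 5.87 and 5.87 there without Cd and 6.31, 6.69 and 6.63 with Cd, whereas wild type read 6.16, 6.06 and 6.09 without Cd and 6.16, 6.26 and 6.28 with Cd. The MT KO groups formed the lowest and the highest values of the 12. The interaction was 0.53 (SE 0.12, adjusted p = 0.0385). The second probe set of nhr-45 gave 0.44 in wild type (adjusted p = 0.0397) and an interaction of 0.18 (adjusted p = 0.693).

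Apart from nhr-156, each interaction call was lost when single arrays were left out. The call was lost without 11 of the 12 arrays for nhr-45 (adjusted p 0.0599 to 0.0978), and without 10 each for nhr-137 (0.054 to 0.107), nhr-210 (0.067 to 0.103) and nhr-260 (0.0679 to 0.108).

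**Figure D4:**
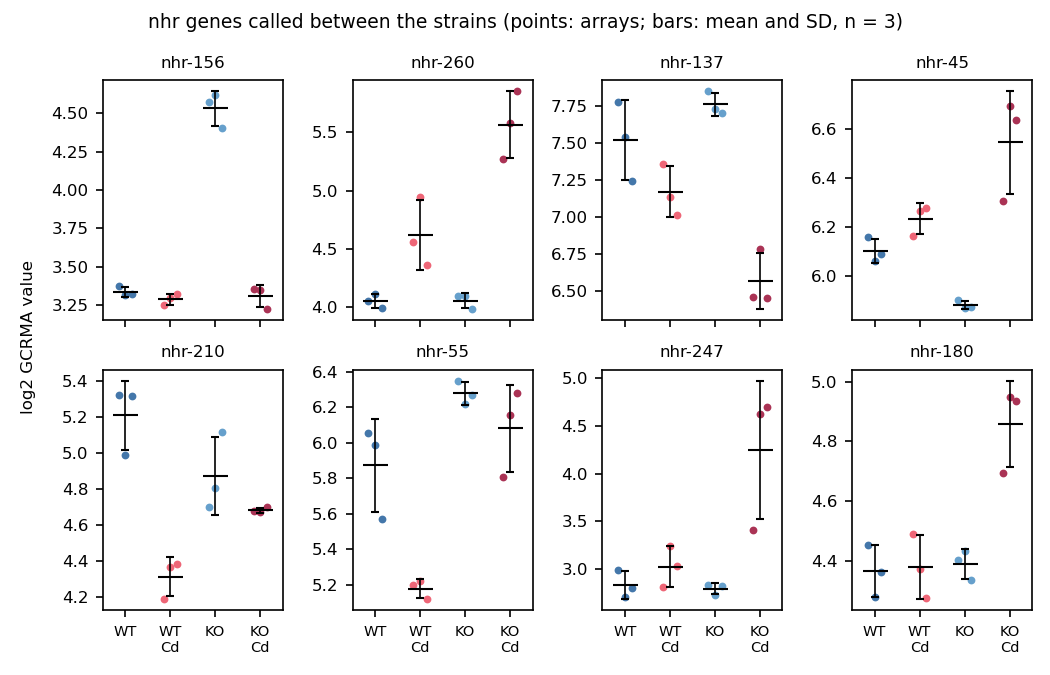
Log2 GCRMA values of 8 nhr genes called between the strains or in the interaction, with 1 point per array and the mean and SD (n = 3) of each group; the y axes differ between panels and do not start at 0. Only MT KO without Cd stands apart for nhr-156, and MT KO with Cd for nhr-260, nhr-137, nhr-247 and nhr-180.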

How the data were processed

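RNA of whole L4 larvae was amplified and biotin-labelled for 1-colour arrays, per the labels. The authors deposited log2 values, 1 for each probe set on each array. GCRMA is the tool named in the submitters' processing notes, and its version was not given in the sources used here. GCRMA corrects the background by probe sequence and equalises the distributions of the arrays, so a shift shared by all genes would not show. Of 22625 features, 77 controls were left out, and 22548 probe sets were fitted as deposited, with 1 mean per group over all 12 arrays, in limma 3.58.1 (R 4.3.3; 8 residual degrees of freedom). Tests were two-sided, with Benjamini-Hochberg adjustment over all probe sets at 0.05. A value given as ± is a mean with its SD. Depth is not defined for arrays, and the 3 arrays per group limit the precision.

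Symbols came from the platform annotation. All 254 members matched the RefSeq table of assembly WBcel235, used for chromosome, gene type and neighbours. The members and lists were chosen with earlier results of these data known. The members that could be named were up to 10 of the largest rises and falls called per comparison, all role-list members and the 10 brightest. Members called in both strains are named too, some chosen after their values were seen. From other lists up to 4 genes with the smallest adjusted p were named, with further members where a list went both ways. Alternatives were an intensity trend, robust moderation, quantile normalization, fits on 6 arrays, array weights, a replicate block, a brightness filter, means over probe sets, an RNA quality covariate, and leaving out each array. The fit was tested on simulated data. No sequences were used.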

Additional observations from a re-analysis of the deposited data

Results flagged for a closer look

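The Cd response differed between the strains, by the interaction in limma, in 5 receptors, given as the log2 difference with Cd in MT KO minus that in wild type. For nhr-156 the difference was −1.17 (adjusted p = 0.00021), and 3 of its 4 groups read below the median of all values. For nhr-137 it was −0.85 (adjusted p = 0.0457). The receptors nhr-260, nhr-210 and nhr-45 had positive differences of 0.95, 0.71 and 0.53 (adjusted p = 0.045, 0.0421 and 0.0385). The share of these 5 in the family, 1.97%, lay below that of all probe sets, 5.45%. Only the call of nhr-156 remained whichever array was left out. The call of nhr-45 was lost without 11 of the 12 arrays, and those of nhr-137, nhr-210 and nhr-260 without 10 each. A second probe set of nhr-45 had an interaction of 0.18 that did not pass in limma (adjusted p = 0.693).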

How the results depend on the processing

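The 27 calls with Cd in wild type became 17 with only the 6 wild-type arrays and 16 with the 3′ minus 5′ covariate, with 15 and 12 genes shared with the 27, and ranged from 18 to 31 when 1 array was left out. The 48 calls in MT KO ranged from 37 to 58 over the settings tried, and from 39 to 47 when 1 array was left out. The single call between the strains without Cd became 2 after quantile normalization, nhr-156 and 1 other, and 2 with only brighter probe sets, where nhr-156 was not tested and both calls were other members, and ranged from 1 to 3 without 1 array. The 16 with Cd ranged from 5 to 19 without 1 array. The 5 interaction calls became 3 with an intensity trend, 3 with robust moderation, 9 with array weights and 3 with the covariate, ranged from 1 to 5 without 1 array, and were 5 higher and 1 lower after quantile normalization. The cause of these moves was not tested. Averaging the probe sets of nhr-97, which rose by 0.30 with Cd in MT KO, gave -0.042 (adjusted p = 0.816). Of 20 named calls in wild type, 13 remained when each array was left out, as did 22 of 26 in MT KO. In wild type, nhr-142, nhr-161 and nhr-206 were lost without 11, 9 and 8 of the 12 arrays. Of the 33 members with several probe sets, the call differed between them for 6 in wild type and 12 in MT KO. None had opposite calls, but few had more than 1 called probe set, as an opposite call requires. For nhr-97 the other probe set had −0.39 in MT KO, which did not pass (adjusted p = 0.0802).

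Arrays with the same replicate number correlated at −0.20 to 0.24 in their deviations, with 5 of 18 pairs above 0.1, and 6 of 12 arrays correlated best with their own number, so the numbers were not taken to pair samples. With the replicate block the counts were 25, 46, 1, 13 and 5 in the order above, of which 23, 42, 1, 10 and 3 were genes called without it. Among the named calls it ended the interaction for nhr-260 (adjusted p = 0.0641) and nhr-45 (0.059), the strain difference with Cd for nhr-23 (0.0521), nhr-43 (0.0713), nhr-7 (0.0522) and nhr-35 (0.0747), and the wild-type Cd calls of nhr-161 (0.0561) and nhr-206 (0.0678). Signal near background limits the 158 members below the median of all values.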

Other observations

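Genes near the family in function changed too. The gene daf-36, for the first step of the synthesis of dafachronic acid, the ligand of the nuclear receptor DAF-12, read lower with Cd by −0.98 in wild type (adjusted p = 0.00302) and −0.93 in MT KO (adjusted p = 0.00191). The later enzyme daf-9 rose by 1.40 in MT KO (adjusted p = 0.00101), and its wild-type difference of 0.65 did not pass (adjusted p = 0.0826). Of 5 measured genes of this list, 1 fell in wild type, and 1 rose and 2 fell in MT KO. The shares of all probe sets were 6.44% higher and 5.5% lower in wild type, and 11.5% higher and 11% lower in MT KO. The receptor gene daf-12 rose in both strains, by 0.36 (adjusted p = 0.0258) and 0.31 (adjusted p = 0.0304), and was the only called one of 5 receptors with other names. Of 4 co-regulators, the acetyltransferase cbp-1 rose in MT KO (0.45, adjusted p = 0.034).

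Members that neighbour each other formed 34 runs with 107 genes, 28 of the runs on chromosome V. The longest, of 8 genes (nhr-186, nhr-188, nhr-189, nhr-187, nhr-157, nhr-158, nhr-159 and nhr-124), read 1.99 to 2.43 and held no call with Cd. In a run of 6, nhr-212 rose and nhr-106 fell in both strains, and nhr-55 fell in wild type. A further 14 probe sets carried several symbols with an nhr gene among them. Of these, 3 rose in wild type and 4 in MT KO, beside 6.44% and 11.5% of all probe sets. These runs and genes were chosen after their values were seen.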
